A study of Mus musculus with 14 samples.

Results

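The genes described here encode the machinery of the motile cilium, the beating hair of airway multiciliated cells. They were taken by name from the deposited gene tables of 14 mouse lung libraries: symbols beginning Dnah, Dnai, Dnaic, Dnaaf, Drc, Cfap, Rsph or Tekt followed by a number, together with Foxj1, Tppp3 and Dynlrb2. Of 54347 genes, 75 matched, and 72 reached a mean of 0.5 CPM (counts per 1e+06 counts) over the 14 libraries and are the members. The level rule used the mean of all libraries and no comparison. Just outside it lay Tekt3 with a mean of 0.47 CPM, followed by Rsph6a with 0.01 CPM and Cfap97d1 at 0, and just inside it lay Dnah14 with 1.13, Dnah2os with 1.64 and Cfap73 with 1.73 CPM. Dnah2os is annotated as an antisense transcript of Dnah2 and entered by its name alone, and the other 71 members are protein coding. The 72 genes lie on 18 chromosomes.

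A motile cilium is built on an axoneme, a ring of doublet microtubules around a central pair. Dynein motors in an outer and an inner row walk along the neighbouring doublet and bend the cilium, radial spokes and the dynein regulatory complex pass signals between the centre and the motors, and tektins and other inner proteins stiffen the doublets from within. Assembly factors fold the dyneins in the cytoplasm before they enter the cilium, and the transcription factor FOXJ1 switches on much of the set in cells that become multiciliated. In the airway, the coordinated beat moves mucus out of the lung, and loss of many of these genes causes primary ciliary dyskinesia.

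All mice were C57BL/6 and all, controls included, received intranasal Alternaria alternata, a fungal allergen, at 2 mg per dose in 40 µl on 4 days. In the chimera experiment, 10000000 live WT bone marrow cells were given to irradiated hosts, either wild type (WT recipients, n = 2) or with human JAK1 in a gain-of-function form (GOF recipients, n = 2), so the JAK1 allele was carried by the host and not by the transferred marrow. In the intrathecal (i.t.) experiment, resiniferatoxin (RTX), a TRPV1 agonist that ablates sensory neurons carrying this channel, was injected at 25 ng per mouse on 2 days (n = 3) and compared with 10 µl saline (n = 2). In the subcutaneous (s.c.) experiment, RTX was given at 30, 70 and 100 µg/kg over 3 days (n = 3) and compared with 100 µl saline (n = 2). Age and sex were not used here. The labels number the libraries of a group and do not say whether each is another mouse. The p-values therefore cover the spread between libraries, which may be technical.

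Libraries held 18198872 to 24393000 estimated counts, and the lowest count of any member in a library was 9 to 33, so every member was measured in every library. All 72 members passed the filter on low counts in all 4 comparisons. Of 10 sperm and testis genes, Odf1 and Tnp1, markers of maturing sperm, were at 0 in every library. The list summed to 12.6 to 29.3 CPM per library, nearly all of it Spata18 at 10.5 to 28.5 CPM, and the remaining genes reached at most 1.27 CPM (Ldhc). The libraries also differed in transcripts outside the members, in places within a group and in places along with the groups. Hmga2, a transcript present in trace amounts, stood at 6.13 CPM in s.c. vehicle 1 and at 0.05 to 0.50 CPM in the other 4 s.c. libraries, and Rps3a2 stood at 3.80 and 4.99 CPM in the i.t. vehicles and at 0.06 to 0.13 CPM in the i.t. RTX libraries. The i.t. split coincides with the treatment, and the 2 cannot be told apart. In the chimeras, WT recipient 1 had 4.999 CPM of Rps3a2 and the other 3 libraries 0 to 0.45 CPM, and it had 1.29 CPM of Hmga2 against 5.37 to 12.03 CPM. In the s.c. experiment, vehicle 2 and RTX 1 were both low in these transcripts (Rps3a2 at 0.24 and 0.19 CPM), and RTX 2 and RTX 3 had 6.37 and 4.71 CPM of Rps3a2. In the chimeras, Xist was 122 and 132 CPM in WT and 62.9 and 73.2 CPM in GOF recipients, and 0.91 to 5.11 CPM in the other 10 libraries.

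A sequence feature that the naming rule did not use was more frequent in the promoters of the members than in those of all genes. RFX transcription factors, which act with FOXJ1 in ciliated cells, bind the X-box, an imperfect palindrome whose arms carry the letters GTTGCC on the forward or GGCAAC on the reverse strand. In the RefSeq promoter table of GRCm38.p6, which gives 300 bases from 250 before to 50 after a gene's start, 57 of the 72 members had an entry. GTTGCC, searched on both strands, was present for 24 of these 57 (42.1%) and for 14.1% of the 27025 genes in the table. A selection of upstream sites, of members named below or of their classes, is shown to make this letter pattern visible. Cfap298, Cfap74, Cfap97d2 and Tekt2 also had upstream sites, not shown, and Foxj1, Tppp3, Rsph1 and Cfap65 had no entry. Capitals mark 1 GTTGCC per line or, where the site reads on the other strand, GGCAAC. The Cfap161 line holds a further GGCAAC in lower case. The sites shown lie on GRCm38.p6 at chr8:116504939-116504994 for Dynlrb2, chr11:114727368-114727418 for Dnaic2, chr5:30281357-30281392 for Drc1 and chr16:44394755-44394798 for Cfap44, all on the plus strand, and at chr7:83794875-83794930 for Cfap161 and chr8:95434933-95434988 for Cfap20 on the minus strand.
Dynlrb2: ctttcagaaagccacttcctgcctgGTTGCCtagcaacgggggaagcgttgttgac
Dnaic2: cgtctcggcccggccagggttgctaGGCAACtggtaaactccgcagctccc
Drc1: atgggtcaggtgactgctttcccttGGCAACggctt
Cfap44: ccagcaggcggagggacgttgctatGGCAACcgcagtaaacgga
Cfap161: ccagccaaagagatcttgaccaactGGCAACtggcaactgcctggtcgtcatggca
Cfap20: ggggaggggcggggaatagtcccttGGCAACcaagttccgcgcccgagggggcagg
In Dynlrb2, Dnaic2 and Cfap44 the capitals stand next to a near copy of the opposite arm in lower case.

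Exact matches to the palindromic X-box, with both arms at a fixed spacing, were rare. Near copies with another letter or spacing, as in the lines above, were not counted. A loose form, which allows any letters at the centre and includes 1 variable letter in each arm, overlaps GTTGCC and was found for 1 of 57 members (1.75%, Cfap298) and 0.529% of all genes. The strict form with a fixed centre was found for 0 members and 0.152% of all genes. The forkhead site TGTTTAC was found for 3 members (5.26%) and 4.05% of all genes. For 2 motifs with no particular tie to cilia, the shares were 10.5% and 8.09% for the E-box CACGTG and 38.6% and 41.1% for CCAAT. A match is a run of letters, and binding was not measured.

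Levels between genes are compared per kilobase of exon. Tppp3, a tubulin polymerization promoting protein and a marker of ciliated cells, was highest at 108 CPM per kb (chr8:105467493-105471526, minus strand, GRCm38). Foxj1 (chr11:116330704-116335399, minus strand) followed at 44.2, Dynlrb2, a light chain of the roadblock family (chr8:116504974-116515915, plus strand), at 23.2, the assembly factor Cfap298 at 20.6 and the radial spoke head gene Rsph1 at 18.9 CPM per kb. These short genes stood far above the motors themselves: the dynein heavy chains Dnah6 and Dnah5 were at 2.82 and 2.31 CPM per kb, close to the median member at 2.82, and Dnah14 was lowest at 0.0696 CPM per kb. Exons of the members span 556 to 26820 bases. Tppp3 and Foxj1 together gave 23.4% of the summed level of the 72 genes.

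The sum over all members, in CPM scaled between libraries by TMM factors, ranged 1.88-fold from the lowest to the highest library. WT recipients had 1488 and 1479 CPM, and GOF recipients had 1652 and 1766 CPM. The i.t. vehicle libraries had 1607 and 1209 CPM, and the i.t. RTX libraries 1150, 1513 and 1399 CPM. The s.c. vehicle libraries had 1620 and 1132 CPM, and the s.c. RTX libraries 962, 941 and 964 CPM. The 3 s.c. RTX libraries were the lowest of the series and close to each other, GOF recipients were above WT recipients, and the i.t. groups overlapped. Within both vehicle pairs, replicate 1 was high and replicate 2 low. In bulk lung, fewer ciliated cells and less ciliary RNA per cell cannot be told apart.

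**Figure D1:**
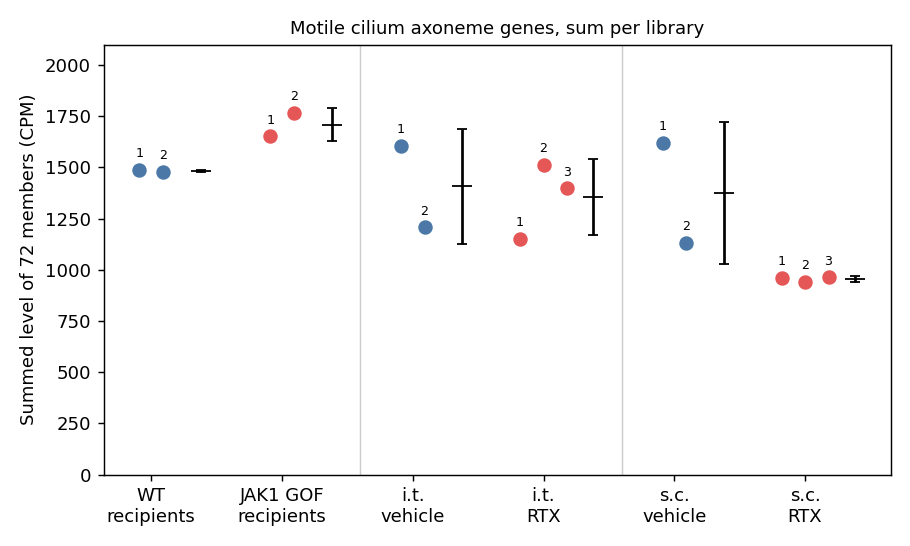
Summed level of the 72 members in CPM (vertical axis, from 0) for each library, numbered by replicate, with the group mean and SD as bar and whiskers to the right. The s.c. RTX libraries sit at 941 to 964 CPM, below both s.c. vehicle libraries at 1132 and 1620 CPM.

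Subcutaneous RTX gave the most uniform pattern over the members, and the size of that pattern depended on 1 vehicle library. The fold change was below 0 for 68 of 72 members, against 50.8% of all genes tested (49.2% were above 0), and the median log2 fold change was -0.61, against -0.00 over all genes. No member passed the test: edgeR's quasi-likelihood test with Benjamini-Hochberg adjustment called 0 of 72 members and 0% of 17363 genes. At an unadjusted p under 0.05, 46 members were lower and 0 higher, against 9.19% and 8.97% of all genes. Every RTX library lay below both vehicle libraries for 52 members and above both for 1, against 19% of genes each way. DESeq2 called 11 members lower (Tppp3, Cfap161, Cfap74, Cfap126, Cfap65, Cfap57, Cfap46, Dynlrb2, Tekt4, Dnah3 and Rsph9), the fit without a low-count filter 15, and limma voom 0. The same fits called 2.37% of all genes with DESeq2 (1.16% lower), 2.81% without the filter (1.54% lower) and 0% with limma voom.

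Tppp3 showed the smallest p of the s.c. comparison. It stood at 254 and 202 CPM in the vehicle libraries and at 132, 124 and 116 CPM after RTX. The groups were separated by a wide gap, and the log2 fold change was -0.88 ± 0.11 (SE) with an edgeR adjusted p of 0.0947. In 1 edgeR fit of all 14 libraries its adjusted p was 0.0236, and it was the only member called there, among 71 of all genes (0.387%). Without vehicle 1 its log2 fold change was still -0.70, the smallest of any left-out library, and it was not called.

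Foxj1, the regulator of the programme, did not separate the groups. It stood at 144 and 78.8 CPM with vehicle and at 89.7, 81.8 and 81.3 CPM after RTX, so vehicle 2 was the lowest of the 5 libraries. Its log2 fold change was -0.41 ± 0.26 with an edgeR adjusted p of 0.453, and 0.09 without vehicle 1.

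Among the motors of the outer arm, Dnah5, a heavy chain mutated in primary ciliary dyskinesia, stood at 47.3 and 23.9 CPM with vehicle and at 23.7, 22.6 and 21.2 CPM after s.c. RTX. Vehicle 2 was thus only just above the RTX libraries. Its log2 fold change was -0.67 ± 0.28 with all libraries and -0.09 without vehicle 1. The inner arm heavy chain Dnah6 stood at 48.3 and 28.2 CPM and after RTX at 24.1, 25.5 and 26.5 CPM, again with vehicle 2 near the treated libraries. Of the 10 inner arm heavy chains 9 were below 0, and of the 5 outer arm heavy chains 3, with medians of -0.61 and -0.59.

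The intermediate and light chains, which anchor and link the motors, were lower for all 3 members, with a median of -0.78. Dynlrb2 stood at 15.0 and 10.2 CPM with vehicle and at 6.43, 7.10 and 8.62 CPM after RTX. Its groups did not overlap, and the log2 fold change was -0.78 ± 0.21 with an edgeR adjusted p of 0.141. Dnaic2, an intermediate chain of the outer arm, stood at 22.1 and 12.9 CPM and after RTX at 9.63, 10.8 and 11.7 CPM, also without overlap.

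In the structural classes every member was below 0. These were the 9 central apparatus genes with a median log2 fold change of -0.71, the 11 inner proteins and tektins with -0.62, the 9 radial spoke genes with -0.61 and the 3 dynein regulatory complex genes with -0.58. Cfap161, a protein of the doublet lumen, stood at 11.6 and 9.34 CPM with vehicle and at 5.77, 6.03 and 6.04 CPM after RTX. Here vehicle 2 was well above all treated libraries, and the log2 fold change was -0.82 ± 0.16 with an edgeR adjusted p of 0.116. Cfap74, of the central apparatus, showed the same separation, with 19.6 and 13.7 CPM and after RTX 8.80, 10.3 and 9.82 CPM (log2 fold change -0.79 ± 0.17, edgeR adjusted p = 0.124).

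Other members that lead their classes by level are given for comparison. Cfap65, of the central apparatus, stood at 65.5 and 38.6 CPM with vehicle and at 32.4, 29.7 and 34.0 CPM after RTX. Drc3, of the dynein regulatory complex, stood at 27.0 and 17.9 CPM and after RTX at 14.4, 15.5 and 15.5 CPM. Both had no overlap between groups, with log2 fold changes of -0.71 ± 0.22 and -0.58 ± 0.17. Smaller differences were seen for abundant members of the remaining classes. Cfap20, which seals the junction of the doublet, stood at 40.2 and 37.5 CPM and after RTX at 34.0, 36.6 and 32.7 CPM, and Cfap36 at 40.2 and 35.9 CPM and after RTX at 31.1, 31.6 and 32.8 CPM. Cfap298 stood at 35.8 and 28.3 CPM and after RTX at 27.9, 25.2 and 27.1 CPM. These 3 did not overlap between groups, with log2 fold changes of -0.18 ± 0.09, -0.26 ± 0.09 and -0.27 ± 0.12. The radial spoke gene Rsph3a did overlap, with 34.1 and 29.3 CPM and after RTX 31.8, 29.5 and 29.8 CPM. Rsph3a and Rsph3b, and likewise Dnah7a, Dnah7b and Dnah7c, are close copies between which reads can be split, which was not measured here. Of the exon bases of Cfap298, 53.6% overlap a gene on the opposite strand. The values of these genes are uncertain.

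Of the 7 assembly factors 6 were below 0, with a median log2 fold change of -0.29 and a range from -0.70 for Dnaaf1 to 0.23 for Dnaaf2. The 4 members above 0 in the s.c. comparison, singled out after their values were seen, were Dnaaf2, Dnah8, Dnah14 and Dnah17. Dnaaf2 was the member higher in every RTX library, with 16.0 and 15.0 CPM in the vehicles and 20.1, 17.2 and 17.8 CPM after RTX. It shares 32.7% of its exon bases with a gene on the opposite strand and 38.7% with genes on its own strand, so its counts are uncertain. Dnah8 and Dnah17 are best known as outer arm heavy chains of the sperm tail. Dnah17 stood at 5.47 and 7.12 CPM with vehicle and at 7.98, 4.92 and 6.67 CPM after RTX, with overlap.

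The place of vehicle 1 in these values was measured directly. It was the highest of the 5 s.c. libraries for 64 of 72 members, and it exceeded vehicle 2 for 66, with a median log2 difference of 0.58, against -0.01 over all genes. That gap between like-treated libraries was close in size to the gap between the groups. Without vehicle 1 the median of the members was -0.21, with 61 of 72 below 0, 11 lower at an unadjusted p under 0.05 and 0 called. In that fit 49.6% of all genes were below 0 and 4.197% were lower at an unadjusted p under 0.05. Without vehicle 2 the median was -0.90 and 39 members were called lower by edgeR, as were 449 of all genes (2.48%). Such fits leave 1 vehicle library, which is assumed to vary like the RTX group. Vehicle 2 alone lay above all 3 RTX libraries for 53 of 72 members (73.6%), against 29% of all genes tested, and its sum of 1132 CPM was above theirs, RTX 1 with 962 CPM included.

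The marker lists of other cell types differed in direction after s.c. RTX, and edgeR called none of their genes. All 10 club cell genes were below 0 (median log2 fold change -0.996), with none at 0 CPM in any group, and their sum was 17157 and 10791 CPM with vehicle and 6119, 6951 and 6942 CPM after RTX. All 8 alveolar type 1 genes were below 0 (median -0.48), with sums of 5633 to 5836 CPM and 4044 to 4207 CPM. All 12 heart muscle genes were below 0 (median -0.88), and their sum was 483 CPM in vehicle 1, 132 CPM in vehicle 2 and 156 to 198 CPM after RTX. The heart muscle genes were thus high in vehicle 1 alone, whereas the club and alveolar type 1 sums were above the RTX libraries in both vehicles. Neuroendocrine genes were below 0 for 5 of 5 (median -0.40), smooth muscle genes for 8 of 8 (-0.10), goblet cell genes for 8 of 11 (-0.17) and alveolar type 2 genes for 7 of 10 (-0.02). Basal cell genes were above 0 for 4 of 7 (median 0.35) and airway cartilage genes for 3 of 3 (0.28). The part of these cell types in the member values was not tested.

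**Figure D2:**
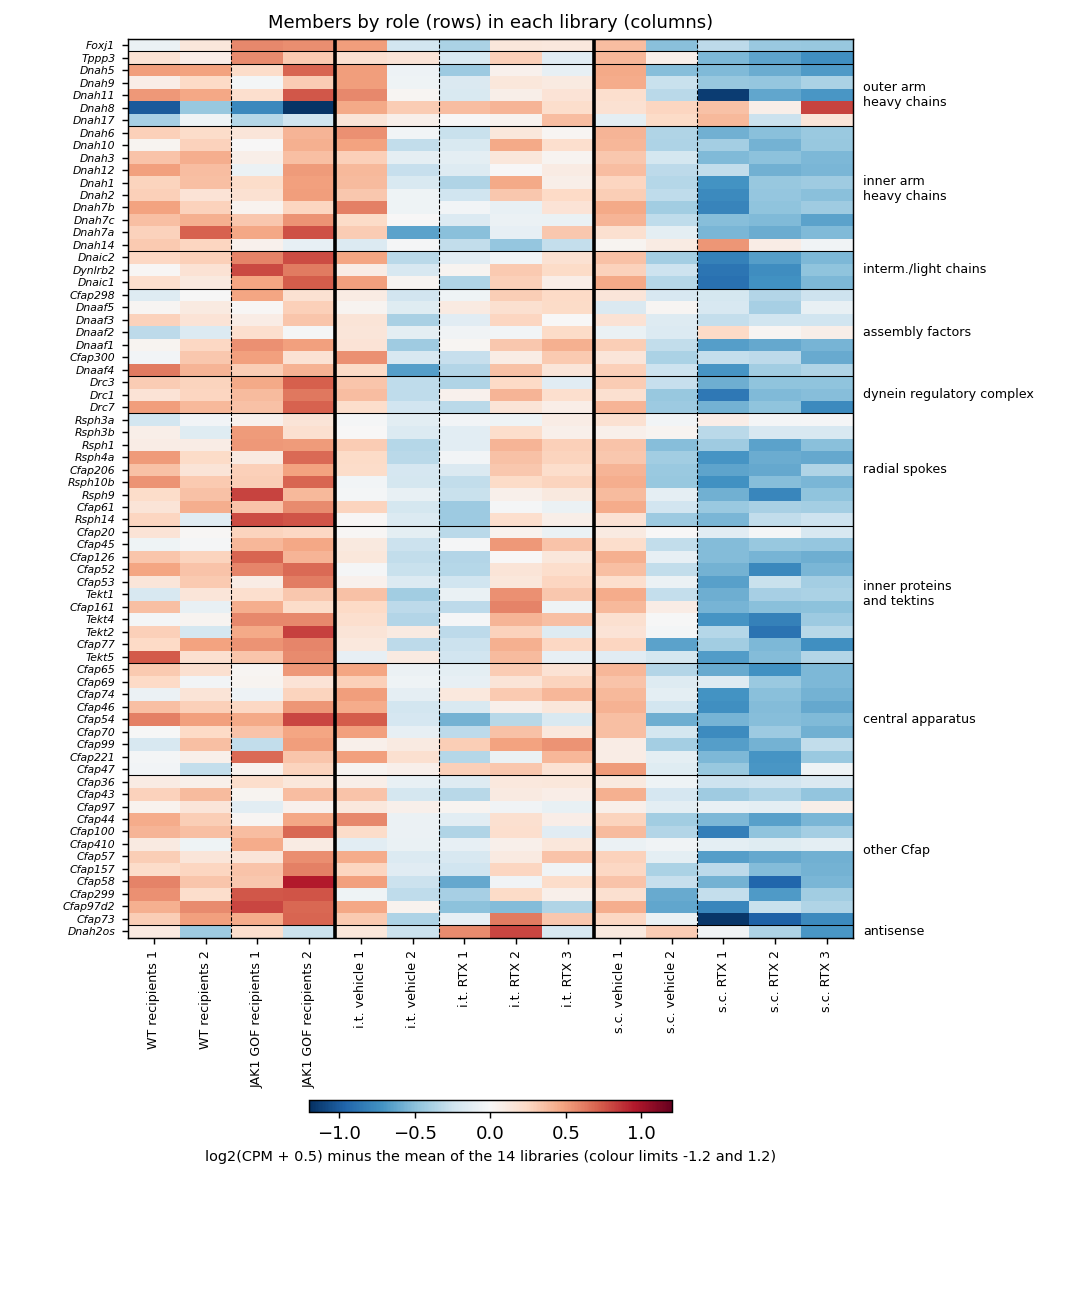
Each row is a member, grouped by role and ordered by level, and each column a library; colour is log2(CPM + 0.5) minus the row's mean over the 14 libraries, from blue (lower) to red (higher), limited at 1.2 either way. Solid lines part the 3 experiments and dashed lines the groups. The 3 s.c. RTX columns are blue for most rows, s.c. vehicle 1 is red for most, and the row of Dnah8 is blue in the 4 chimera columns.

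In the chimera experiment most members had somewhat higher values in GOF recipients, with the smallest p for Foxj1. The fold change was above 0 for 57 of 72 members, against 50.1% of all genes tested (49.9% were below 0), with a median log2 fold change of 0.15, against 0.00. No member passed the edgeR test, which called 0.717% of 17298 genes (0.173% higher and 0.543% lower). At an unadjusted p under 0.05, 13 members were higher and 0 lower, against 4.63% and 6.94% of all genes. Both GOF libraries lay above both WT libraries for 30 members and below them for 2 (Dnah14 and Dnah7b), against 21.7% and 21.2% of genes. DESeq2 called 1 member, Foxj1, at an adjusted p of 0.0160, and 1.01% of all genes. With limma voom 0 members and 0.260% of all genes were called.

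Foxj1 stood at 107 and 123 CPM in WT and at 167 and 164 CPM in GOF recipients. The groups were clearly apart, with a log2 fold change of 0.52 ± 0.13 and an edgeR adjusted p of 0.0981. Dynlrb2 stood at 12.4 and 13.8 CPM in WT and at 21.5 and 19.1 CPM in GOF libraries, a log2 fold change of 0.63 ± 0.16 (edgeR adjusted p = 0.105). Rsph1 stood at 26.5 and 26.5 CPM in WT and at 35.9 and 35.7 CPM in GOF libraries, a log2 fold change of 0.43 ± 0.12 (edgeR adjusted p = 0.163). In all 3, the replicates were closer to each other than to the other group, which naming them by smallest p favours. Tppp3 stood at 218 and 204 CPM in WT and 287 and 241 CPM in GOF recipients, with a log2 fold change of 0.32 ± 0.14.

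By role, all 3 intermediate and light chains were above 0, at a median of 0.46 on the log2 scale. The dynein regulatory complex had 0.30 and 3 of 3, the radial spokes with 0.23 and 9 of 9, the inner proteins and tektins with 0.22 and 10 of 11, and the assembly factors with 0.20 and 5 of 7. The motors had medians near 0. Outer arm heavy chains had a median of -0.02 with 1 of 5 above 0, and inner arm heavy chains 0.03 with 6 of 10. The central apparatus, also near 0, had a median of 0.07 with 8 of 9 above 0. Cfap genes outside these classes had 0.17 with 9 of 12. Dnah5 stood at 48.8 and 48.3 CPM in WT and at 40.2 and 55.9 CPM in GOF recipients, and Dnah6 at 44.2 and 42.4 CPM and at 40.2 and 48.3 CPM. In both, the GOF libraries lay on either side of the WT libraries. Cfap65, with 61.5 and 56.5 CPM in WT and 50.4 and 71.0 CPM in GOF recipients, was spread in the same way.

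The 2 GOF libraries differed in composition. The 15 dynein heavy chains made up 14.4% of the members' sum in GOF recipient 1 and 16.2% to 19.3% in the other 13 libraries. GOF recipient 2 was the highest of the 4 libraries for 43 members, whereas GOF recipient 1 was the highest for 19 and the lowest for 26. Without GOF recipient 2 the median of the members was 0.03 with 37 of 72 above 0, and without GOF recipient 1 it was 0.25 with 64 above 0. Without WT recipient 1, edgeR called 2 members higher, the tektin Tekt2 (adjusted p = 0.0132) and the radial spoke gene Rsph14 (adjusted p = 0.0493), among 919 genes in all (5.16%). WT recipient 1 is the library that differed in Rps3a2 and Hmga2.

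Marker lists of other cell types moved in both directions in the chimeras. All 12 heart muscle genes were above 0 (median log2 fold change 1.14), edgeR called 7 of them higher, and their sum was 267 and 390 CPM in WT and 609 and 614 CPM in GOF recipients, with none at 0. Of the 10 club cell genes 8 were above 0 (median 0.42), none was called, and their sum was 12849 and 10061 CPM in WT and 14555 and 16402 CPM in GOF recipients. Of the 11 goblet cell genes 8 were below 0 (median -0.32) and edgeR called Bpifa1 higher, with sums of 1019 to 1513 CPM in WT and 745 to 857 CPM in GOF recipients. The part of these in the member values was not tested.

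After intrathecal RTX the members showed no common direction. Exactly 36 were above and 36 below 0, against 51.5% and 48.5% of all genes, and the median log2 fold change was 0.00, against 0.01 over all genes. EdgeR called 0 members and 0.311% of 17360 genes. At an unadjusted p under 0.05, 1 member was higher and 2 were lower, against 5.85% and 5.63% of genes. Groups did not overlap for 3 members higher (Dnaaf5, Cfap47 and Cfap99) and 4 lower (Cfap97d2, Dnah14, Dnah7c and Cfap97), against 15% and 15.3% of genes. DESeq2 and limma voom also called 0 members, and 0.841% and 0.213% of all genes.

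The smallest p belonged to Cfap97d2, which stood at 3.04 and 2.14 CPM with i.t. vehicle and at 1.33, 1.29 and 1.50 CPM after RTX. The groups did not overlap, with a log2 fold change of -0.91 ± 0.29 and an edgeR adjusted p of 0.283. Cfap54, of the central apparatus, stood at 18.9 and 9.68 CPM with vehicle and at 7.41, 8.82 and 9.84 CPM after RTX, so vehicle 1 alone was high (-0.71 ± 0.27, edgeR adjusted p = 0.388). Dnaaf5, an assembly factor, was higher in every RTX library, with 28.1 and 24.8 CPM against 29.6, 31.5 and 32.4 CPM (0.24 ± 0.10, edgeR adjusted p = 0.389). Of its exon bases, 10.6% overlap a gene on the opposite strand.

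Members that lead the other comparisons overlapped between the i.t. groups. Foxj1 stood at 159 and 95.9 CPM with vehicle and at 85.7, 123 and 122 CPM after RTX. Tppp3 stood at 221 and 215 CPM and after RTX at 170, 236 and 175 CPM, and Dynlrb2 at 13.1 and 10.6 CPM and after RTX at 12.5, 15.4 and 14.5 CPM. The groups overlapped for all 3. The i.t. libraries also moved as wholes: vehicle 1 exceeded vehicle 2 for 67 of 72 members (median log2 difference 0.43), and RTX 1 lay below RTX 2 for 67 and below RTX 3 for 68. Without vehicle 1 the median of the members was 0.21 with 59 above 0, and without vehicle 2 it was -0.18 with 52 below 0. In those fits 48.2% and 48.6% of all genes were below 0. Without vehicle 2 the log2 fold change of Cfap54 was -1.12. Leaving out RTX 1, RTX 2 or RTX 3 gave medians of 0.12, -0.10 and -0.06.

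By role, the i.t. values parted in another way. Radial spokes were above 0 for 8 of 9 members (median log2 fold change 0.12), inner proteins and tektins for 9 of 11 (0.15) and assembly factors for 6 of 7 (0.24). Outer arm heavy chains were above 0 for 1 of 5 (-0.23), inner arm heavy chains for 2 of 10 (-0.09) and central apparatus genes for 3 of 9 (-0.10). These classes also differ in gene length. No member of any class passed the test.

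The test of the difference between the s.c. and the i.t. effect, in 1 fit of the 10 RTX and vehicle libraries, called 0 members and 0.0556% of 17972 genes, 0.0278% in each direction. The difference, s.c. minus i.t., was below 0 for 65 of 72 members, against 50.7% of all genes (49.3% were above 0), with a median of -0.53 on the log2 scale, against -0.01. At an unadjusted p under 0.05, 23 members were lower and 0 higher, against 7.68% and 7.53% of genes. The smallest p belonged to Dynlrb2 (-1.03 ± 0.26, edgeR adjusted p = 0.149), Tekt4, a tektin (-1.14 ± 0.30, 0.155), and Cfap73 (-1.96 ± 0.56, 0.174). Cfap73 was a low gene, at 1.96 and 1.46 CPM with s.c. vehicle, 0.42, 0.56 and 0.72 CPM with s.c. RTX, 2.07 and 1.10 CPM with i.t. vehicle and 1.44, 2.69 and 2.10 CPM with i.t. RTX. DESeq2 called 2 members, Tppp3 and Dynlrb2, and 0.998% of all genes. With limma voom 0 members and 0.0612% of all genes were called. The median was -0.20 without s.c. vehicle 1, -0.81 without s.c. vehicle 2, -0.79 without i.t. vehicle 1 and -0.34 without i.t. vehicle 2. An effect that differs between the routes was therefore not established for any member by the main test.

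**Figure D3:**
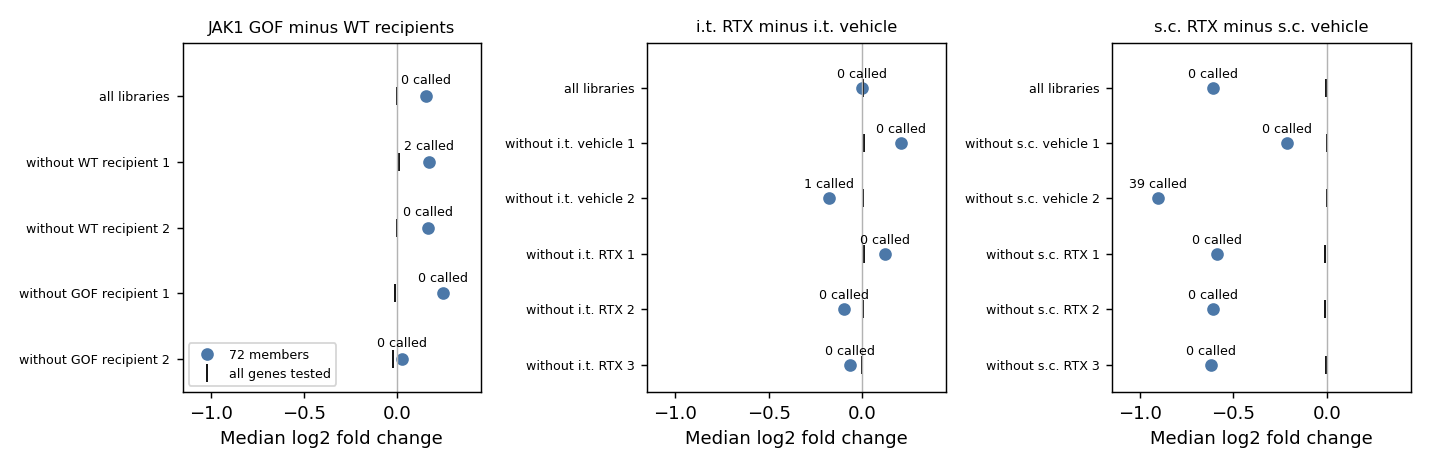
Median log2 fold change of the 72 members (points) and of all genes tested (ticks) with all libraries and with each library left out, for the 3 comparisons; the number beside each point is how many members edgeR called. The s.c. median runs from -0.90 without vehicle 2 to -0.21 without vehicle 1, and the i.t. median lies on both sides of 0.

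Fold changes of the members followed exon length in the chimera and i.t. experiments and not in the s.c. experiment. For members under 2000 bases of exon, at 2000 to 4000, at 4000 to 8000 and from 8000 bases up, the median log2 fold change in the chimeras was 0.30, 0.20, 0.16 and 0.03. All genes tested showed a smaller slope in the same direction, with 0.11, 0.04, -0.03 and -0.07. In the i.t. comparison the members had 0.19, 0.13, -0.11 and -0.13, and all genes 0.10, 0.03, -0.01 and -0.06. In the s.c. comparison the members had -0.64, -0.55, -0.59 and -0.62, and all genes -0.09, -0.03, 0.03 and 0.05. The s.c. values were thus alike in short and long members, although all genes in that comparison rose slightly with length. In the other experiments short members stood above long ones as short genes did in general. The share of length in the values of any class was not tested.

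**Figure D4:**
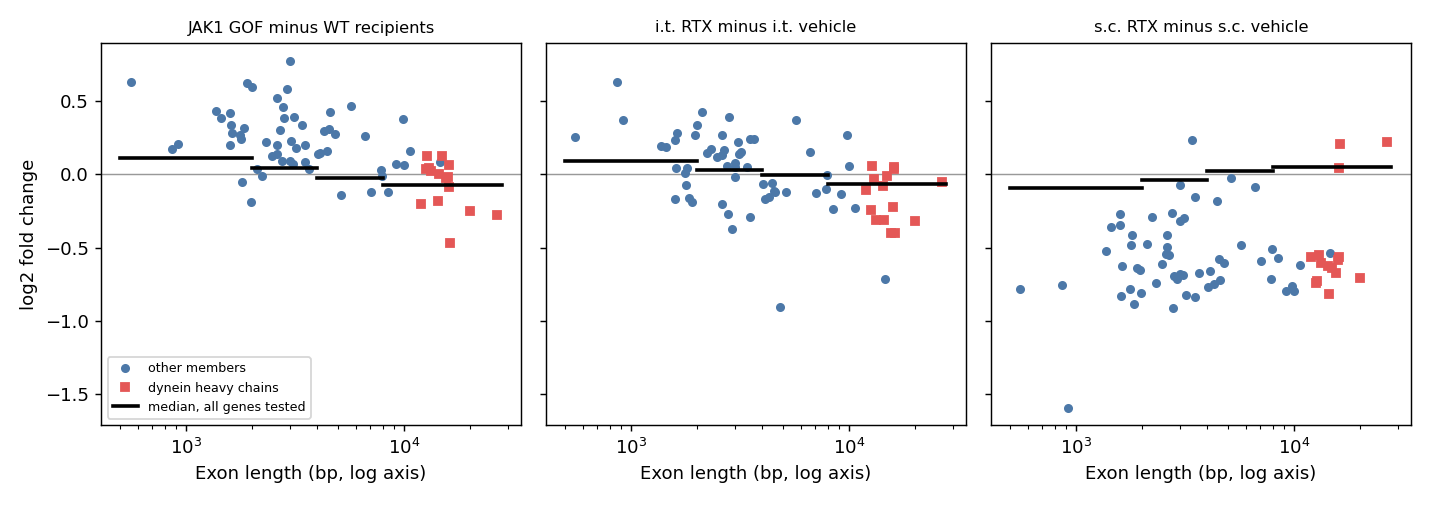
Log2 fold change of each member (vertical axis) against its exon length in base pairs (log axis) for the 3 comparisons; squares are dynein heavy chains, circles the other members, and black lines the median of all genes tested in each length range. Members slope down with length in the chimera and i.t. panels and lie near -0.6 at all lengths in the s.c. panel.

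Other genes of the ciliated cell that the naming rule left out were counted in the same way. Of 48 listed, among them Hydin of the central apparatus and Ccdc39 and Ccdc40, the molecular ruler of the doublet, 45 were tested and Pih1d3 was at 0 in every group. In the s.c. comparison 45 of 45 were below 0 with a median log2 fold change of -0.59, and their sum was 1851 and 1567 CPM with vehicle and 1292, 1271 and 1314 CPM after RTX. The tubulins Tubb4b and Tuba1a, which many other cells express, gave more than the rest of the list together in these 5 libraries. Without them, a choice made after the values were seen, the sum was 746 and 470 CPM with vehicle and 401, 408 and 429 CPM after RTX, so vehicle 2 lay nearer to the treated libraries than to vehicle 1. Without vehicle 1, 40 of the 45 were below 0 with a median of -0.23. In the chimeras 40 were above and 5 below 0 (median 0.17), and in the i.t. comparison 22 and 23 (median -0.01). EdgeR called none of them in any comparison.

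Genes that act before or beside the axoneme had medians nearer 0 in the s.c. comparison. Intraflagellar transport genes, which carry cargo into motile and primary cilia alike, were below 0 for 26 of 29 in the s.c. comparison with a median of -0.21. The list of multiciliogenesis factors includes genes that start the programme upstream of Foxj1 or amplify centrioles, and also Rfx1, Rfx2 and Rfx3. Its genes were below 0 for 10 of 17 and above 0 for 7. Their median was -0.04, and their sum was 259 and 246 CPM with vehicle and 262 to 279 CPM after RTX. E2f4, the largest in that sum, had means of 65.8 CPM with vehicle and 75.5 CPM after RTX, and Rfx1 34.9 and 41.0 CPM. Picked after their values were seen, Trp73 had 10.6 and 7.93 CPM, Deup1 7.80 and 6.03 CPM and Ccno 5.99 and 5.02 CPM. Mcidas had 3.22 and 2.63 CPM and Gmnc 2.23 and 1.81 CPM. In each of these lower genes, vehicle 2 lay within the range of the RTX libraries. That did not hold for E2f5 of the same list, also picked after its values were seen. It stood at 15.7 and 12.6 CPM with vehicle and at 11.4, 11.5 and 11.2 CPM after RTX, without overlap. In the i.t. comparison 14 of the 17 multiciliogenesis factors were above 0 (median 0.10). EdgeR called none of either list in the s.c. comparison, and a difference between the lists was not tested.

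Dnah8 stood apart from the other members across experiments, and was singled out after its values were seen. It ranged from 4.76 to 8.18 CPM in the 4 chimera libraries and from 11.96 to 20.4 CPM in the 10 other libraries, without overlap. Within each experiment its groups overlapped, with log2 fold changes of -0.28 ± 0.26 in the chimeras, -0.05 ± 0.13 after i.t. RTX and 0.22 ± 0.22 after s.c. RTX. Xist split the libraries in the same way, with 62.9 to 132 CPM in the chimeras and 0.91 to 5.11 CPM elsewhere. Irradiation with marrow transfer, what Xist marks and the experiment itself differ together between these libraries and cannot be told apart.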

How the data were processed

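The authors deposited 3 tables, 1 per experiment, of estimated counts per gene and library as Salmon gives them; 24.2% of values were not whole. Per the submitters' processing notes, the tools were FastQC 0.11.8, Trim Galore 0.6.6, STAR 2.7.5b and Salmon 1.2.1 with build GRCm38. Per the labels' protocols, mRNA was selected with oligo-dT and prepared with NEBNext Ultra II. The strand setting and annotation release are not given in the sources used here, so reads of overlapping or antisense genes cannot be told apart.

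Counts were rounded. A separate fit was made per experiment (R 4.3.3, edgeR 4.0.16), after TMM scaling and filterByExpr (minimum count 10, minimum total 15), as a robust quasi-likelihood model with group as its only term. Benjamini-Hochberg adjustment covered every gene in the fit, and the threshold was 0.05. Levels are CPM after TMM scaling over 14 libraries, and SE is the fold change divided by the root of F. Exon lengths and positions came from GENCODE M21, where 72 members were found by identifier, 68 in the same version. Alternatives were DESeq2 size factors, total counts, no low-count filter, DESeq2 1.42.0, limma 3.58.1 voom, 1 fit of 14 libraries, a replicate block and leaving out each library; a list sum without 2 tubulins was added after the values were seen. The procedure was tested on simulated data. Figures were drawn with matplotlib 3.10.9.

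The members, gene lists and role classes were chosen with earlier results of these data known, so no p-value is given over them. Foxj1, Tppp3, Dynlrb2 and the member with the highest level in each role class were named by rule. So were the 3 members with the smallest p of each comparison. Values in every library are given for Foxj1, Tppp3 and Dynlrb2. For the others they are given in some comparisons only, and for Tekt4 in none. Other members named were chosen after their values were seen. Replicates of each group differed by more than sampling noise (chi-square per degree of freedom 8.91 to 21.3).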

Additional observations from a re-analysis of the deposited data

How the results depend on the processing

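With all libraries, the count of members called moved from 0 to 2, 2, 15 and 1 without the low-count filter (Foxj1 and Dynlrb2 in the chimeras, Dnah5 and Cfap54 for i.t., 15 members for s.c. and Dynlrb2 for the difference between routes, against 2.81%, 2.27%, 2.81% and 0.475% of all genes in those fits), to 1, 0, 11 and 2 with DESeq2 in the same order, and to 1 for s.c. with all 14 libraries in 1 fit. It stayed at 0 with DESeq2 size factors, total counts alone and limma voom. The WT recipients' mean sum was 1483 ± 6.34 CPM with TMM scaling and 1525 CPM with total counts, the only group mean to move by more than its SD.

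Leaving out 1 library at a time, members called ranged from 0 to 2 in the chimeras, 0 to 1 for i.t., 0 to 39 for s.c. and 0 to 0 for the difference. Every such fit that called a member left only 1 library in a group. The number of all genes called also changed with the library left out, in every comparison. Whether the change in member counts was particular to the members was not tested. The members' median log2 fold change ranged from 0.028 to 0.25 in the chimeras, -0.18 to 0.21 for i.t., -0.90 to -0.21 for s.c. and -0.81 to -0.20 for the difference. Named members changed sign in these fits in 20 cases. In the chimeras these were Cfap65 (-0.23 to 0.25), Dnah5 (-0.28 to 0.19) and Dnah6 (-0.11 to 0.15). For i.t. they were Foxj1 (-0.52 to 0.20), Cfap65 (-0.35 to 0.20), Dnaic2 (-0.47 to 0.34), Drc3 (-0.40 to 0.24), Dnah6 (-0.58 to 0.013), Cfap36 (-0.019 to 0.15) and Cfap20 (-0.15 to 0.039). For s.c. they were Foxj1 (-0.79 to 0.094) and Rsph3a (-0.18 to 0.048), and for the difference Foxj1 (-0.61 to 0.30), Dnah5 (-0.68 to 0.31) and Dnah6 (-0.62 to 0.16). The cause was not tested.

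The replicate numbers pair no samples by label, and same-numbered libraries did not deviate together: correlations of deviations were 0.02 in the chimeras, -0.23 and -0.16 for i.t. and -0.10 and -0.07 for s.c. With the replicate number as a block, 0 members were called in every comparison, with medians of 0.15, -0.07, -0.58 and -0.52. Those fits called 0.711%, 0.288%, 0% and 0.0389% of all genes. The lowest member count in a library, 9 to 33, limits the precision of the rarest members.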
